A study of Rattus norvegicus with 24 samples.

Results

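8 genes, Lhx5, Bhmt, Kbtbd6, Rgn, Il18, Gpha2, Tmem54 and Acot6, were followed across the 24 RNA-Seq libraries of the study. They were selected on measured values, because their levels differed between pups of the in utero (IUO) and postnatal (PNO) oxycodone (oxy) lineages in the same direction in the F1 and in the F2 generation. The files list Kbtbd6 under 2 gene IDs, so the 8 names cover 9 of the 23950 genes listed. The IUO against PNO differences are therefore the basis of the selection and are given below as a description, without a test. The libraries were made from the nucleus accumbens (NAc), a reward region of the ventral striatum, of Sprague Dawley rat pups at postnatal day 14, with 4 libraries in each of 6 groups. F1 IUO pups were born to F0 dams gavaged with oxy from before mating, at 10 mg/kg/day for 5 days and then rising by 0.5 mg/kg/day over 10 days to 15 mg/kg/day, and kept on drug through gestation and nursing up to weaning. F1 PNO pups were born to F0 dams that received 15 mg/kg/day by gavage only from birth of the litter to weaning, and F1 saline (SAL) pups, born to dams given saline, are the controls. F2 IUO, F2 PNO and F2 SAL pups descended from F1 females of the same lineages, which were never dosed themselves. Pups of either sex were drawn at random, and no label gives their sex. Nothing says which pups shared a litter, so the p-values measure only the spread between these libraries.

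Oxycodone acts on the mu opioid receptor, which projection neurons of the NAc carry, and it reaches offspring through the placenta and the milk. The 8 genes do not form a pathway. Lhx5 encodes a LIM homeodomain transcription factor of the developing forebrain and hypothalamus, and Kbtbd6 an adaptor that brings substrates to the cullin-3 ubiquitin ligase. Bhmt encodes betaine-homocysteine methyltransferase, which remakes methionine from homocysteine and is best known from liver and kidney. Il18 encodes an interleukin-1 family cytokine that caspase-1 cuts to its active form. Rgn encodes regucalcin, a calcium-binding lactonase of the ascorbate pathway. Gpha2 encodes the alpha subunit of thyrostimulin, a glycoprotein hormone that acts on the TSH receptor. Acot6 encodes an acyl-CoA thioesterase, and Tmem54 a membrane protein of little known function.

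The deposited value is FPKM, fragments scaled to transcript length and to the mapped fragments of the library, given to 0.01. Summed FPKM ranged from 535866 to 766781 per library, the number of reads is unknown, and no counting error can be given. Between 4782 and 7532 genes were listed at 0 per library. More than 6500 were at 0 in 4 libraries, all of them IUO, namely F1 IUO replicates 1 and 4 and F2 IUO replicates 2 and 4. These 4 libraries also had 116 to 188 of the 7235 genes with a mean of 1 to 10 FPKM at 0, against 35 to 94 in the other 20, while 14 housekeeping genes were above 0 everywhere. All 9 striatal projection neuron markers, among them Drd1, Drd2 and Ppp1r1b, were present in each group, with sums of 411 to 1330 FPKM. Markers of neighbouring tissue varied more. The 10 hypothalamus markers summed to 11.1 to 25.8 FPKM in F1 PNO and 74.1 to 184 in F1 IUO, and the 6 cortical excitatory markers to 10.3 to 361 over all libraries. The 8 choroid plexus markers had a wider range, with sums of 5.4 to 12300 FPKM in F2 IUO. They reached 8160 in F1 IUO, 3810 in F1 PNO, 6810 in F2 PNO and 5200 in F1 SAL, but at most 83.5 in F2 SAL. Of these markers 0 were past the rule described below in any comparison, and their part in the member levels was not tested. F2 PNO replicate 4 held pituitary genes, with Gh1 at 4681.51 FPKM against at most 4.79 in any other library. Fewer cells of a type and less RNA per cell cannot be told apart in such bulk tissue.

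Each comparison was fitted with limma on log2(FPKM + 0.1). A gene was past the rule when its unadjusted p was below 0.05 and the means of FPKM differed at least 2-fold. Between IUO and PNO, 2.95% of all genes tested were past the rule in F1 and 1.8% in F2, and 36 genes were past it in both generations, out of 16729 tested in both. Of these, 31 had the same direction, 17 higher and 14 lower in IUO. The 8 members are among those 31 because they were chosen so. The ninth gene, Kbtbd6 with the ID ENSRNOG00000047604, was not past the rule in either generation. Among the members, Gpha2 was nearest the limit on p, with a larger p of 0.0377, and Bhmt nearest the limit on the fold, with a smaller fold of 2.02. AABR07014242.1, which is no member, lay closer on both, at 0.0429 and 2-fold. Just outside were AABR07008608.1, with a larger p of 0.0502, and LOC100910163, with a smaller fold of 1.97. After Benjamini-Hochberg adjustment no member was under 0.05, with a smallest limma adjusted p of 0.108 in F1 and 0.431 in F2, where 0.133% and 0% of all genes were. The groups did not overlap for 3 members in F1 and 2 in F2, against 10.5% and 4.74% of all genes.

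Most of the 8 genes were scarce in NAc. 5 of the 9 gene IDs had a mean under 1 FPKM over the 24 libraries, and 19 of their 216 values were listed at 0. Rgn was at 0 in 8 libraries, Gpha2 in 7 and Acot6 in 4. Tmem54 had the highest mean, 3.19 FPKM, followed by 2.28 FPKM for Kbtbd6 (ENSRNOG00000047604) and 2.07 FPKM for Bhmt and Il18. The plot of all levels by group shows the members that were higher in IUO first.

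**Figure D1:**
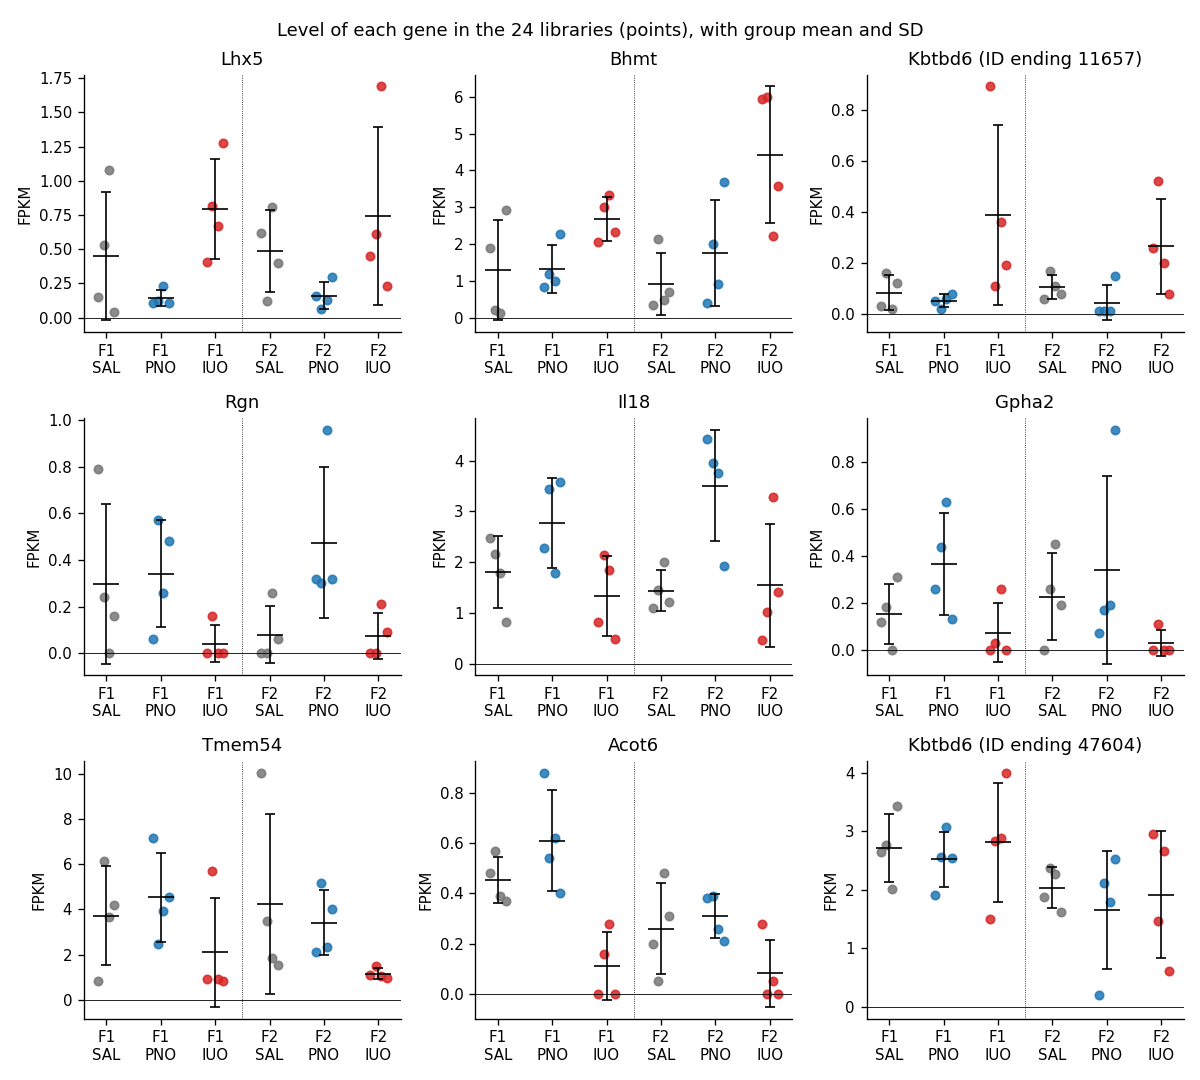
FPKM of each of the 9 gene IDs in the 24 libraries (points) by group, with the group mean (horizontal bar) and SD (error bars); the vertical axis is linear and differs between panels. Lhx5, Bhmt and Kbtbd6 (ENSRNOG00000011657) have higher IUO than PNO means in both generations, the next 5 genes lower IUO means, and Kbtbd6 (ENSRNOG00000047604) means of 1.66 to 2.81 in every group.

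Of the members higher in IUO, the transcription factor gene Lhx5 (ENSRNOG00000001392) was at 0.41, 0.82, 0.67 and 1.28 FPKM in the F1 IUO libraries and at 0.11, 0.12, 0.23 and 0.11 in the F1 PNO libraries. In F2 it was at 0.45, 0.61, 1.69 and 0.23 in IUO and at 0.16, 0.06, 0.13 and 0.3 in PNO. Every F1 IUO library was above every F1 PNO library, while in F2 the lowest IUO library lay inside the PNO range. The log2 fold change of IUO over PNO was 1.82 ± 0.397 (SE) in F1 and 1.48 ± 0.574 in F2. The saline libraries spanned both groups, with 0.15, 0.53, 1.08 and 0.04 FPKM in F1 and 0.62, 0.12, 0.81 and 0.4 in F2. Against saline, Lhx5 was past the rule in none of the 4 comparisons. The IUO differences from saline were 1.07 ± 0.652 on the log2 scale in F1 and 0.42 ± 0.613 in F2, and the PNO differences -0.76 ± 0.627 and -1.06 ± 0.517. The lowest limma p of these 4 was 0.07, for F2 PNO, with an adjusted p of 0.485.

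Lhx5 was compared with the hypothalamus markers. Its 2 highest values, 1.69 and 1.28 FPKM, were in F2 IUO replicate 3 and F1 IUO replicate 4, where those markers summed to 280 and 184 FPKM. The F1 PNO libraries, all at or below 0.23 FPKM of Lhx5, had marker sums of at most 25.8. Other libraries departed from this, among them F2 PNO replicates 4 and 1, with marker sums of 839 and 139 and Lhx5 at 0.3 and 0.16 FPKM, and F2 SAL replicate 1, with a sum of 42 and Lhx5 at 0.62. With the hypothalamus markers as a covariate, the difference between IUO and PNO was 0.37 on the log2 scale in F1 and 1.01 in F2. In F1 the groups and the marker level cannot be told apart, since the marker sums of IUO and PNO did not overlap.

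The ligase adaptor gene Kbtbd6, ID ENSRNOG00000011657, was at 0.89, 0.11, 0.36 and 0.19 FPKM in F1 IUO and at 0.05, 0.02, 0.06 and 0.08 in F1 PNO. The F2 values were 0.26, 0.52, 0.2 and 0.08 in IUO and 0.01, 0.01, 0.01 and 0.15 in PNO. The F1 groups did not overlap and the F2 groups did. Apart from 0.89, 0.36 and 0.52 these values were at most 0.26 FPKM, and in F1 the gene passed the filter on low values through the 4 IUO libraries alone, since no PNO library reached 0.1 FPKM. The log2 fold change was 1.44 ± 0.54 in F1 and 1.29 ± 0.533 in F2. Saline libraries held 0.02 to 0.16 FPKM in F1 and 0.06 to 0.17 in F2. Against saline, the IUO difference was 1.24 ± 0.571 in F1 (limma adjusted p = 0.999) and 0.72 ± 0.486 in F2 (adjusted p = 0.673), and PNO could not be tested because too few libraries reached the filter.

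The other Kbtbd6 ID, ENSRNOG00000047604, was more abundant and did not follow the first. Its F1 means were 2.81 ± 1.02 FPKM (SD, n = 4) for IUO, 2.52 ± 0.471 for PNO and 2.72 ± 0.578 for SAL, and its F2 means 1.92 ± 1.08, 1.66 ± 1.01 and 2.04 ± 0.344. The IUO over PNO log2 fold change was 0.09 ± 0.29 in F1 and 0.37 ± 0.735 in F2. In the RefSeq table Kbtbd6 lies next to Kbtbd7, a close relative that the files do not name. How reads were divided among these copies is not given, so the level under either ID is uncertain.

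The methyltransferase gene Bhmt (ENSRNOG00000011200) was at 2.05, 3.02, 3.33 and 2.32 FPKM in F1 IUO and at 0.83, 1.2, 0.99 and 2.28 in F1 PNO. In F2 it was at 5.93, 6.0, 2.23 and 3.57 in IUO and at 0.41, 2.0, 0.92 and 3.69 in PNO. One PNO library in each generation lay inside the IUO range. IUO exceeded PNO by a log2 fold change of 1.04 ± 0.316 in F1 and 1.56 ± 0.608 in F2. Bhmt also differed from saline in F2. F2 SAL libraries held 0.34, 2.15, 0.48 and 0.71 FPKM, all below the lowest F2 IUO library, and the difference of 2.35 ± 0.526 on the log2 scale was past the rule (4.82-fold, exact permutation p = 0.0286, the smallest that 4 against 4 allows). Its limma adjusted p was 0.333. In F1 the saline libraries were split, at 1.89, 0.21, 0.12 and 2.93 FPKM, and overlapped IUO.

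The F1 difference between IUO and SAL of 1.77 ± 0.785 for Bhmt was past the rule with an unadjusted limma p of 0.0489 and an adjusted p of 0.999, and its exact permutation p was 0.114. It was no longer past the rule when either F1 SAL replicate 2 or replicate 3, or any single IUO library, was left out. PNO and saline differed by 0.73 ± 0.815 in F1 and 0.79 ± 0.693 in F2, with adjusted p values of 0.727 and 0.684 by limma.

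At its extremes Bhmt moved with the cortical excitatory neuron markers, among them Slc17a7 and Tbr1. The 2 lowest Bhmt values, 0.12 and 0.21 FPKM, were in F1 SAL replicates 3 and 2, whose cortical markers summed to 10.3 and 72.7 FPKM. The 2 highest, 6.0 and 5.93 FPKM, were in F2 IUO replicates 2 and 1, with sums of 361 and 315. Between these extremes some libraries departed, among them F1 PNO replicate 3, with a sum of 271 and Bhmt at 0.99 FPKM. F1 IUO replicate 3 had a sum of 202 and Bhmt at 3.33 FPKM. When these markers entered the fit, which was decided once the data had been seen, the difference between IUO and SAL was 1.20 on the log2 scale in F2 and 0.54 in F1, and neither was past the rule. The same fit took the difference between F2 IUO and F2 PNO from 1.56 to 0.52. Across F2 the cortical sums were 183 to 361 in IUO, 135 to 229 in SAL and 24.5 to 319 in PNO, and 4 of the 6 markers were past the rule between F2 IUO and SAL.

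**Figure D2:**
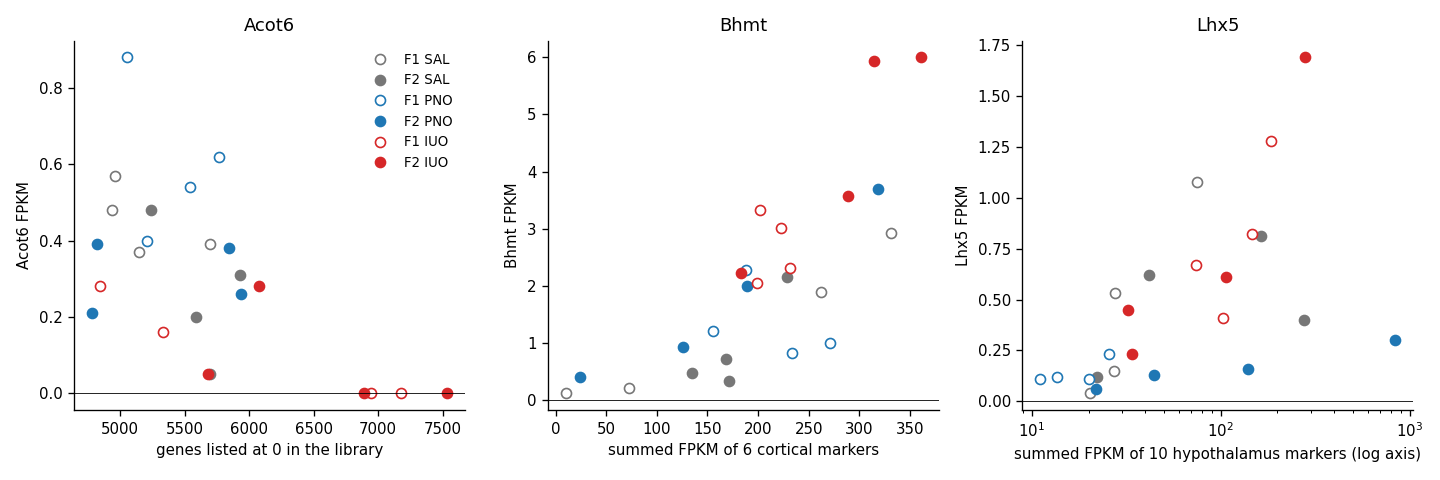
FPKM of Acot6, Bhmt and Lhx5 in the 24 libraries (vertical axes) against the number of genes listed at 0 in the library, the summed FPKM of 6 cortical markers and, on a log axis, the summed FPKM of 10 hypothalamus markers; open circles are F1 and filled circles F2, grey SAL, blue PNO and red IUO. Acot6 was at 0 in the 4 libraries with more than 6500 genes at 0, Bhmt reached 6.0 FPKM at the highest cortical sum of 361, and Lhx5 was at most 0.23 FPKM in the F1 PNO libraries, whose hypothalamus sums were at most 25.8.

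Among the members lower in IUO, the cytokine gene Il18 (ENSRNOG00000009848) was at 0.83, 2.15, 1.85 and 0.49 FPKM in F1 IUO and at 2.27, 3.44, 1.78 and 3.58 in F1 PNO. In F2 it was at 0.47, 1.01, 3.28 and 1.41 in IUO and at 4.43, 3.96, 3.75 and 1.92 in PNO. The groups overlapped in both generations. IUO differed from PNO by -1.15 ± 0.442 on the log2 scale in F1 and -1.37 ± 0.527 in F2. Saline libraries were at 2.47, 2.16, 1.78 and 0.83 FPKM in F1 and at 1.09, 1.45, 2.01 and 1.22 in F2. Il18 was higher in F2 PNO than in F2 SAL by 1.20 ± 0.317 on the log2 scale and past the rule (2.44-fold, exact permutation p = 0.0571), with a limma adjusted p of 0.365. In F1 the same difference was 0.63 ± 0.35, and IUO and saline differed by -0.52 ± 0.485 in F1 and -0.17 ± 0.499 in F2, none of them past the rule.

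The regucalcin gene Rgn (ENSRNOG00000007949) was, like Il18, highest in PNO in F2. It was at 0.32, 0.3, 0.96 and 0.32 FPKM in F2 PNO, at 0, 0, 0.21 and 0.09 in F2 IUO and at 0, 0, 0.26 and 0.06 in F2 SAL. All 4 F2 PNO libraries were above every F2 SAL library, and the difference of 1.76 ± 0.543 on the log2 scale was past the rule (5.94-fold, exact permutation p = 0.0286), with a limma adjusted p of 0.374. The 4 PNO libraries alone met the filter on low values here, and only 1 SAL library reached 0.1 FPKM. In F1, Rgn was at 0.06, 0.57, 0.26 and 0.48 FPKM in PNO, at 0, 0.16, 0 and 0 in IUO and at 0.79, 0.24, 0 and 0.16 in SAL. Only 1 F1 IUO library was thus above 0. On the log2 scale IUO differed from PNO by -1.61 ± 0.598 in F1 and -1.75 ± 0.551 in F2. In F2, IUO and SAL could not be fitted because 2 of the 8 libraries reached the filter, and in F1 they differed by -1.23 ± 0.708, with an adjusted p of 0.999. The Rgn and Il18 differences between F2 PNO and F2 SAL stayed past the rule in every alternative in which the gene was tested. These alternatives reuse the PNO libraries that chose the members, so they are no independent support. In the same comparison 2 of 3 erythroid markers tested were higher (summed 30.6 to 195 FPKM in F2 PNO and 13.2 to 36.1 in F2 SAL) and 2 of 8 meninges and fibroblast markers lower (25.4 to 52.6 and 26.9 to 97.6 FPKM) and past the rule, and their part in the result was not tested. The erythroid markers were also higher for 2 of 3 in F1 IUO and in F2 IUO against saline.

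The thyrostimulin subunit gene Gpha2 (ENSRNOG00000021020) was at 0, 0.03, 0.26 and 0 FPKM in F1 IUO and at 0.26, 0.44, 0.63 and 0.13 in F1 PNO. In F2 it was at 0, 0.11, 0 and 0 in IUO and at 0.07, 0.17, 0.19 and 0.94 in PNO. The highest value of all 24 libraries, 0.94 FPKM, was in F2 PNO replicate 4, the library with pituitary genes, and the part of that tissue in the value was not tested. The log2 fold change of IUO over PNO was -1.53 ± 0.581 in F1 and -1.51 ± 0.624 in F2. With 1 library left out, Gpha2 still passed the filter in 4 fits in F2, with values of -1.85 to -1.42, and without F2 PNO replicate 4 it could not be fitted. Saline libraries held 0 to 0.31 FPKM in F1 and 0 to 0.45 in F2. None of the 4 differences from saline was past the rule. The one with the lowest p, F2 IUO, was -1.19 ± 0.614 with a limma adjusted p of 0.61.

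The membrane protein gene Tmem54 (ENSRNOG00000024259) was at 0.94, 5.72, 0.93 and 0.83 FPKM in F1 IUO and at 7.15, 2.48, 3.93 and 4.54 in F1 PNO. In F2 it was at 1.11, 1.51, 1.06 and 0.98 in IUO and at 2.13, 5.19, 2.33 and 4.01 in PNO. Of the 8 IUO libraries 7 were at or below 1.51 FPKM, and all 8 PNO libraries were at or above 2.13. Between IUO and PNO the log2 fold change was -1.48 ± 0.583 in F1 and -1.40 ± 0.348 in F2. F2 SAL libraries were at 10.04, 3.48, 1.85 and 1.54 FPKM, all above F2 IUO, so that Tmem54 was lower in F2 IUO, with a log2 difference of -1.39 ± 0.52 that was past the rule (3.63-fold, exact permutation p = 0.0286, limma adjusted p = 0.559). Without F2 SAL replicate 1, which held the value of 10.04, the difference was -0.85 and under 2-fold. It was -1.35 without replicate 2 and -1.21 when the Y-linked genes entered as a covariate, and neither was past the rule. The difference was also not past the rule with the number of genes at 0 as a covariate (-1.38). The same held without the libraries with more than 6500 genes at 0 (-1.47). In F1, saline libraries were at 0.84, 6.13, 3.67 and 4.19 FPKM and differed from IUO by -1.01 ± 0.712.

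The thioesterase gene Acot6 (ENSRNOG00000029637) was at 0, 0.16, 0.28 and 0 FPKM in F1 IUO and at 0.88, 0.54, 0.62 and 0.4 in F1 PNO. F2 libraries held 0.28, 0, 0.05 and 0 in IUO and 0.38, 0.39, 0.26 and 0.21 in PNO. The F1 groups did not overlap and the F2 groups did. The log2 fold change of IUO over PNO was -1.96 ± 0.53 in F1 and -1.38 ± 0.532 in F2. F1 SAL libraries were at 0.48, 0.57, 0.39 and 0.37 FPKM, all above F1 IUO, and Acot6 was lower in F1 IUO, with a log2 difference of -1.63 ± 0.525 that was past the rule (4.11-fold, exact permutation p = 0.0286), with a limma adjusted p of 0.999. The difference was -1.25 with the Y-linked genes as a covariate, -1.73 with the hypothalamus markers and -0.91 with the number of genes at 0. None of these was past the rule. F2 SAL libraries were at 0.2, 0.05, 0.48 and 0.31 FPKM, with a difference from IUO of -1.06 ± 0.618 that was not past the rule.

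The 4 libraries in which Acot6 was listed at 0 were the 4 with more than 6500 genes at 0. In the same 4 libraries Gpha2 was at 0 in 3 and Rgn at 0 in 3, Tmem54 was at 0.83 to 1.51 FPKM and Il18 at 0.49 to 1.41. The remaining IUO libraries, F1 replicates 2 and 3 and F2 replicates 1 and 3, held Tmem54 at 5.72, 0.93, 1.11 and 1.06 FPKM. In the same order, Gpha2 was at 0.03, 0.26, 0 and 0 FPKM and Rgn at 0.16, 0, 0 and 0.21. Il18 was at 2.15, 1.85, 0.47 and 3.28 FPKM there. Acot6 was at 0.16 and 0.28 FPKM in these F1 libraries, still below every F1 PNO and F1 SAL library, and at 0.28 and 0.05 in those of F2. Without the 4 libraries with more than 6500 genes at 0, a choice made once the data had been seen, the Acot6 difference between F1 IUO and F1 SAL was -0.80 and not past the rule. In the same fits 3 members were past the rule between F1 IUO and F1 PNO, against 2.6% of all genes, and 2 between F2 IUO and F2 PNO, against 1.96%. Whether incomplete detection in these libraries accounts for part of the low values was not tested.

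The comparisons with saline share their IUO or PNO libraries with the choice of the members, so they are not independent of it. Between F1 IUO and F1 SAL, 2 members, Bhmt and Acot6, were past the rule, where 1.61% of all genes were, and the groups of 1 did not overlap, against 2.54% of all genes. Between F2 IUO and F2 SAL, 2 members, Bhmt and Tmem54, were past the rule, against 2.18% of all genes, and the same 2 did not overlap, against 5.11%. Between F1 PNO and F1 SAL no member of the 8 tested was past the rule, against 1.86% of all genes, and none was without overlap, against 8.27%. None had an unadjusted limma p under 0.05, against 2438 of 17494 genes. Between F2 PNO and F2 SAL, 2 members, Rgn and Il18, were past the rule, against 2.15% of all genes, and 1 did not overlap, against 7.01%. The Y-linked genes also differed in the IUO comparisons that hold the Bhmt, Acot6 and Tmem54 calls. All 3 tested were past the rule, lower in F1 IUO than in F1 SAL (median log2 fold change -2.96) and higher in F2 IUO than in F2 SAL (3.59), and 2 of 3 were higher in F2 IUO than in F2 PNO. By limma, 0 members had an adjusted p under 0.05 in these 4 comparisons, as did 0% of all genes in the first 3 and 0.00576% in the last. An unadjusted limma p under 0.05 was held by 2, 2, 0 and 2 members. Among all genes, 679 of 17380, 1452 of 17097, 2438 of 17494 and 1876 of 17367 held one.

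**Figure D3:**
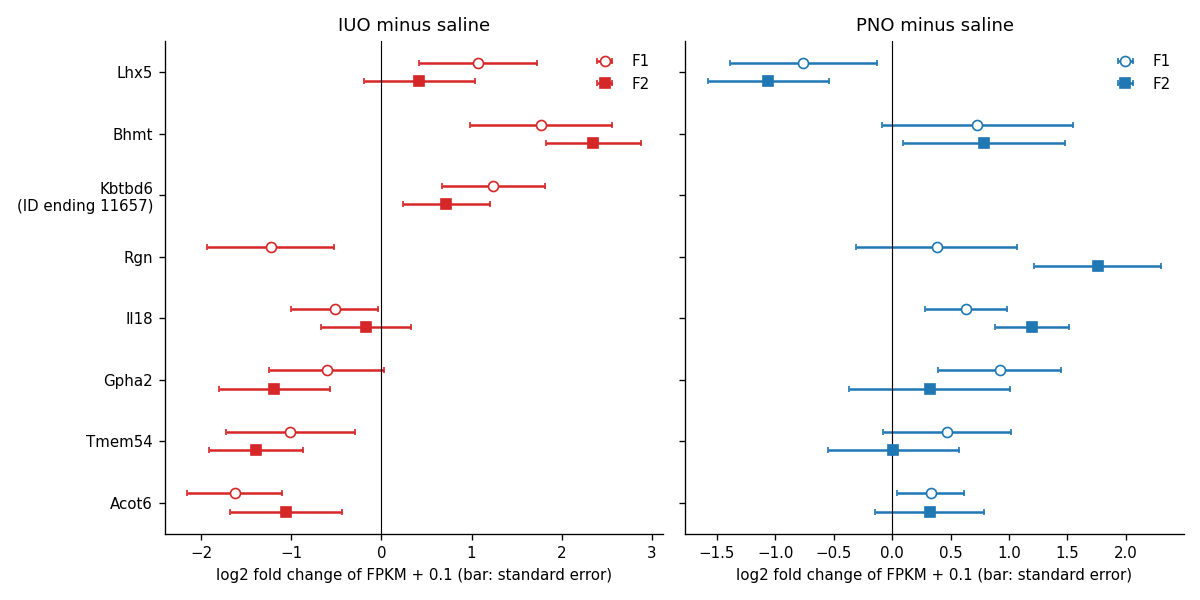
Log2 fold change of FPKM + 0.1 against saline of the same generation for the 8 members, IUO on the left and PNO on the right (open circles F1, filled squares F2), with bars of 1 standard error from limma; members that could not be fitted have no point, and the 2 horizontal scales differ. Bhmt lies at 1.77 and 2.35 in IUO, and Rgn and Il18 at 1.76 and 1.20 in F2 PNO.

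Bhmt, Tmem54, Il18 and Lhx5 differed in F2 in which group stood away from saline. In F2 the difference between the lineages lay mainly on the IUO side for Bhmt (2.35 in IUO and 0.79 in PNO, log2 difference from saline) and Tmem54 (-1.39 and 0.01). It lay mainly on the PNO side for Il18 (-0.17 and 1.20). For Lhx5 the differences from saline were 0.42 in IUO and -1.06 in PNO, with saline between them. In F1 the IUO and PNO values were 1.77 and 0.73 for Bhmt, -1.01 and 0.47 for Tmem54, -0.52 and 0.63 for Il18 and 1.07 and -0.76 for Lhx5. The side was not the same in both generations for every gene. Rgn was at 1.76 in F2 PNO, with F2 IUO not fitted, but at -1.23 in F1 IUO and 0.38 in F1 PNO. These pairs share their saline libraries, and the difference between them is the IUO against PNO contrast that chose the genes. Tested as an interaction in limma, the change of a difference from saline between F1 and F2 did not pass an adjusted p of 0.05 for any member (smallest adjusted p 0.924), nor for any of the 18437 genes tested in the IUO and 18608 in the PNO interaction.

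F2 SAL against F1 SAL was the single comparison that shared no library with the choice. No member was past the rule, against 1.45% of all genes, none had groups without overlap, against 4.98%, and none had a limma adjusted p under 0.05, against 0.0343%. None had an unadjusted limma p under 0.05, against 1483 of 17497 genes. The member with the smallest p was Kbtbd6 (ENSRNOG00000047604), at 2.04 ± 0.344 FPKM (SD, n = 4) in F2 and 2.72 ± 0.578 in F1. The Y-linked genes summed to 27.2 to 36.1 FPKM in F1 SAL and 0.03 to 2.57 in F2 SAL, so that generation and these genes cannot be told apart in this comparison.

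The upstream sequences of the 4 members that were past the rule against saline in F2 are printed to show what the start of each gene looks like. RefSeq promoters (build GRCr8) were found for 6 of the 8 names, all but Lhx5 and Acot6. The build behind the deposited values is not given in the sources used here, so the positions belong to RefSeq alone. Capitals mark matches, on either strand, to 3 core promoter elements, the TATA box (TATAAA), the GC box (GGGCGG) and the CCAAT box, which overlapped nowhere in these 4 stretches. These elements are held by 12.9%, 30.5% and 34% of the 250 bases before the start of all 33469 promoters.
Bhmt, chr2:26614430-26614679, minus strand: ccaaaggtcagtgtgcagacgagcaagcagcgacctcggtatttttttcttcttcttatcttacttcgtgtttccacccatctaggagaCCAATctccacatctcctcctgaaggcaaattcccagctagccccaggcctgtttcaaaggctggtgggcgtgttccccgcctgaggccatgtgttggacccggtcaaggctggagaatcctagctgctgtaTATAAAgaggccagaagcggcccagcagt
Tmem54, chr5:146733307-146733556, plus strand: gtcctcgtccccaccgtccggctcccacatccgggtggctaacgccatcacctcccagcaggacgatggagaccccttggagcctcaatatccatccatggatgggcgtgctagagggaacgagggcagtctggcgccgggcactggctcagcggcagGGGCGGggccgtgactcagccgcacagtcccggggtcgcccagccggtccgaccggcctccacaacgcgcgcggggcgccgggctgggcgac
Rgn, chrX:4187958-4188207, minus strand: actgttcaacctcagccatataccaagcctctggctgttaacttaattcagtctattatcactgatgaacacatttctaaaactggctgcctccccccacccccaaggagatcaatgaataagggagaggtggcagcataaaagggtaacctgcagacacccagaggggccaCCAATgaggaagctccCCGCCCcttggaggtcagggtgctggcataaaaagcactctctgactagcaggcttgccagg
Il18, chr8:59801822-59802071, plus strand: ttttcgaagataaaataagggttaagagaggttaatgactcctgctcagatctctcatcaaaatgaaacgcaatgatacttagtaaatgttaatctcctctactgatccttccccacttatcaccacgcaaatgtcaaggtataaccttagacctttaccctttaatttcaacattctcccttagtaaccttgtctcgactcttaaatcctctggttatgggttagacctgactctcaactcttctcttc

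These stretches differ in composition. The Tmem54 stretch had 71.6% G and C and 26 CpG sites, against 38.4% and 4 sites for Il18, 51.6% and 1 site for Rgn and 53.6% and 8 sites for Bhmt, where the median of all promoters was 51.2% G and C. Bhmt had a TATA box 29 bases before the start and a CCAAT box 161 bases before it. Rgn had a CCAAT box and, on the other strand, a GC box, Tmem54 had a GC box, and Il18 had none of these letters. Since Il18 had no match, it could share none with Rgn, and this says nothing about why both were higher in F2 PNO than in F2 SAL.

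The genes most like each member over the 24 libraries were found by Pearson's r on log2(FPKM + 0.1) among 13673 genes with a mean of at least 1 FPKM. For Bhmt they were Kcnmb4 (r = 0.906), Hs3st2 (0.896) and Nxph3 (0.86). For Lhx5 they were Cbarp (0.804), E130309D02Rik (0.801) and Hap1 (0.753). Il18 was most like Rab8b (0.818), Yars2 (0.801) and Hibch (0.79), and Rgn most like Hibch (0.78), Pls3 (0.775) and Rad17 (0.755), so that Hibch, an enzyme of valine breakdown, was near both. Rgn and Il18 had an r of 0.741 with each other. Both were chosen for lower levels in IUO than in PNO, so this r is not independent of the choice. The closest genes were Slc39a11 (0.768), Maged1 (0.765) and Tbl3 (0.717) for Kbtbd6 (ENSRNOG00000011657), Angel1 (0.7), Sec22b (0.67) and RGD1565059 (0.657) for Gpha2, RF00275 (0.68), Arhgap4 (0.657) and Gpr155 (0.643) for Tmem54, and Akr1cl (0.778), RF00591 (0.76) and Nqo2 (0.759) for Acot6. These r values describe libraries that share groups, dissection and numbers of genes at 0, and r within groups was lower for most pairs, for example 0.634 for Rgn and Hibch but 0.883 for Bhmt and Kcnmb4.

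The partner genes were counted by list, beside the 1.45% to 2.95% of all genes that were past the rule in the 7 comparisons, so that counts near 0 are no result about lists of this size. Of 21 methionine cycle genes, 19 were tested and 0 were past the rule in any of the 7 comparisons. The list's median log2 fold change lay between -0.11 and 0.01, beside -0.08 to 0.03 for all genes. Mtr, the other enzyme that remakes methionine from homocysteine, had a mean of 0.851 FPKM over the 24 libraries (0.14 to 1.81), below the 2.07 of Bhmt, and Cbs, which draws homocysteine into cysteine synthesis, a mean of 20.3 FPKM. Bhmt2, the paralog of Bhmt, was at 0 in 10 libraries and reached at most 0.93 FPKM.

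For Il18, the receptor genes Il18r1 and Il18rap had means of 0.0133 and 0.0338 FPKM and were at 0 in 14 and 5 libraries. The soluble inhibitor gene Il18bp was more abundant than the cytokine, at 7.29 FPKM (4.49 to 12.28), and the protease gene Casp1 was at 1 FPKM (0 to 2.29). Of the 21 genes on the list of interleukin-18 and inflammasome genes, 16 or 17 were tested in each comparison and 0 were past the rule, with list medians between -0.2 and 0.14. The 7 microglia markers found summed to 89.7 to 161 FPKM, and 1 of them was past the rule, lower in F2 IUO than in F2 SAL. For Gpha2, the partner subunit gene Gphb5 was at 0 in 23 libraries. The receptor gene Tshr was higher in F2 PNO than in F2 SAL (0.83 against 0.385 FPKM, log2 standard error 0.341, limma adjusted p = 0.395) and was the single gene of its list past the rule in any comparison.

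Of 15 LIM homeodomain and cofactor genes in the files, 13 or 14 were tested, and 2 were past the rule. Lhx6, a gene of cortical and striatal interneurons, exceeded its F1 PNO level in F1 IUO (log2 fold change 1.06 ± 0.329) and lower in F2 PNO than in F2 SAL (-1.19 ± 0.433). Lhx9, a gene of thalamic and other diencephalic neurons, was lower in F1 IUO than in F1 PNO (-2.66 ± 0.947) and above F1 SAL in F1 PNO (2.89 ± 0.997). The 6 thalamus markers moved with Lhx9, at 96.2 to 236 FPKM summed in F1 PNO and 16.9 to 123 in F1 SAL, and 5 of them were past the rule there. Lhx1, the closest relative of Lhx5, had a mean of 0.16 FPKM and was past the rule in none.

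The cullin-3 partners of Kbtbd6 were abundant. Cul3 itself was at 23.1 FPKM, the ligase target gene Tiam1 at 7.3 and the autophagy gene Gabarap, whose protein binds the adaptor, at 187 FPKM, and 0 of 10 genes were past the rule. Of 25 acyl-CoA thioesterase and peroxisomal genes, 23 were tested. Acot5 alone was past the rule, higher in F2 IUO than in F2 SAL by 0.87 ± 0.345 on the log2 scale with a limma adjusted p of 0.567, at 0.485 against 0.22 FPKM. In the same comparison Acot6 was at 0.0825 against 0.26 FPKM. The related genes Acot1, Acot2, Acot3 and Acot4 had means of 4.01, 4.78, 4.17 and 2.52 FPKM. How reads were divided among the genes of this family is not given, so the low levels of Acot5 and Acot6 are uncertain. For Rgn, 0 of the 13 ascorbate and calcium genes found were past the rule. Gulo, the last enzyme of ascorbate synthesis, was at 0 in 11 libraries, and the transporter gene Slc23a2 at 10.9 FPKM. The 9 liver markers found summed to 0.54 to 3.06 FPKM.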

How the data were processed

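RNA-Seq was run on the NAc of 24 libraries, 4 in each of 6 groups taken from the labels. The authors deposited 1 FPKM table per library, rounded to 0.01, after transcript assembly and estimation with StringTie. The submitters' processing notes also name HISAT2, SAMtools and edgeR, without versions, and the genome build is not given in the sources used here. FPKM are not counts, depth is unknown, and precision rests on the spread between libraries.

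Genes with at least 0.1 FPKM in 4 of the 8 libraries compared were fitted with limma 3.58.1 (R 4.3.3) on log2(FPKM + 0.1), with the trend option and Benjamini-Hochberg adjustment over all genes tested, in 7 comparisons. Fold changes on this scale understate changes of low genes. A gene was past the rule at an unadjusted p below 0.05 and a 2-fold ratio of mean FPKM. Comparisons with saline, and of saline between generations, were repeated with two-sided exact permutation tests, 45 in all, whose smallest p is 0.0286. The code was tested on simulated data. The members and gene lists were chosen with earlier results of these data known. Named beside the members were their 3 most alike genes, partners, and list genes past the rule. Alternatives changed the pseudocount, filter, scaling, fold, libraries fitted and covariates. Promoter sequences came from RefSeq.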

Additional observations from a re-analysis of the deposited data

Results flagged for a closer look

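In 7 of 54 groups of 4 libraries, 1 library stood apart from the other 3 by Dixon's criterion for the gap over the range. The ratios were taken on log2(FPKM + 0.1), so they differ from ratios of the FPKM printed beside them. Chance would flag 2.7 groups, but this figure makes no allowance for tied values. A ratio of 1 arose only where the other 3 libraries were listed at the same value, 0 or 0.01 FPKM. In F1 PNO, replicate 3 held 0.23 FPKM of Lhx5 against 0.11 to 0.12 in the others (gap over range 0.897). In F1 IUO, replicate 2 held 0.16 FPKM of Rgn with the others listed at 0 (ratio 1) and 5.72 FPKM of Tmem54 against 0.83 to 0.94 (ratio 0.939). In F2 PNO, replicate 3 held 0.96 FPKM of Rgn against 0.3 to 0.32 (ratio 0.95). Replicate 4 of that group, the library with pituitary genes, held 0.15 FPKM of Kbtbd6 (ENSRNOG00000011657) with the others at 0.01 (ratio 1), and replicate 1 held 0.21 FPKM of the other Kbtbd6 ID against 1.8 to 2.52 (ratio 0.849). In F2 IUO, replicate 2 held 0.11 FPKM of Gpha2 with the others at 0 (ratio 1).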

How the results depend on the processing

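Between F1 IUO and F1 PNO, 8 members were past the rule, and 3 with a filter of 1 FPKM, where 4 were tested, 1 with the hypothalamus and 4 with the thalamus markers as a covariate, 3 with the number of genes at 0 as a covariate, 3 without the 4 libraries over 6500 zeros, and 3 to 5 without 1 library. The share of all genes past the rule was 2.95%, and in these fits, in order, 1.73%, 1.69%, 1.95%, 2.09%, 2.6% and 2.17% to 3.55%. Between F2 IUO and F2 PNO the 8 became 3 with the filter of 1 FPKM, 3 with Y-linked genes, 2 with cortical markers and 4 with the zeros as a covariate, 2 without those libraries, and 2 to 6 without 1 library. For all genes the 1.8% became, in the same order, 0.879%, 1.33%, 1.85%, 1.12%, 1.96% and 1.38% to 2.61%. Between F1 IUO and F1 SAL the 2 became 0 with the filter of 1 FPKM, 1 with upper-quartile scaling, 0 with Y-linked genes, 1 with thalamus markers, 1 with the zeros, 0 without those libraries, and 1 to 3 without 1 library. For all genes the 1.61% became 0.603%, 1.71%, 0.696%, 1.66%, 0.932%, 1.38% and 1.33% to 2.28%. Between F2 IUO and F2 SAL the 2 became 1 with each of Y-linked genes, cortical markers, the zeros and those libraries left out, and 1 to 2 without 1 library. For all genes the 2.18% became 1.68%, 1.37%, 1.23%, 3.24% and 1.54% to 3.49%. Between F2 PNO and F2 SAL the 2 became 1 with the filter of 1 FPKM, where 3 were tested, and 2 to 3 without 1 library. For all genes the 2.15% became 1.11% and 1.76% to 3.01%. Without 1 library, 0 to 1 were past the rule between F1 PNO and F1 SAL, where 1.54% to 2.83% of all genes were. Between F2 SAL and F1 SAL 0 to 1 were, against 1.35% to 1.92% of all genes. The causes were not tested. The fits with cortical markers, with the zeros, and without the 4 libraries were added once the data had been seen.

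No source ties same-numbered libraries to a shared litter, and no pairing was used. Correlations of their deviations were -0.331 to 0.199 over the 7 comparisons, and over 0.1 for 3 of 4 pairs between F1 IUO and F1 PNO. With a replicate block, 7 members were past the rule between F1 IUO and F1 PNO, 5 between F2 IUO and F2 PNO, 1 between F1 IUO and F1 SAL, 2 between F2 IUO and F2 SAL and 2 between F2 PNO and F2 SAL. The shares of all genes with this block were 3.04%, 1.53%, 1.59%, 2.3% and 2%, in the same order. Of 765 member values outside the IUO against PNO contrast, 723 kept their side of the rule, 24 were no longer past it, 18 were newly past it and 0 of those past it changed sign. Most of the 765 belong to differences that were not past the rule in the main fit, so the 723 say little about those that were. Most of the 24 were of Bhmt between F1 IUO and F1 SAL. Lhx5 was newly past it between F2 PNO and F2 SAL without F2 SAL replicate 2 (-1.47), without F2 PNO replicate 4 (-1.29), and with Y-linked genes (-1.02) or hypothalamus markers (-1.05) as a covariate. Kbtbd6 (ENSRNOG00000011657) was so between F1 IUO and F1 SAL in 1 fit of all 24 libraries (1.24) and with no filter beyond a value above 0 (1.24). It was also so with hypothalamus markers (2.62) and without F1 IUO replicate 2 (1.56). The remaining new cases were of Lhx5 in other comparisons, Rgn, Tmem54, Gpha2 and Acot6. Upper-quartile scaling moved the median of all genes by -0.17 (log2) between F2 IUO and F2 PNO and by -0.12 in both F1 IUO comparisons. Levels near 0 limit Rgn, Gpha2, Acot6 and Kbtbd6 most.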
